A study of Mus musculus with 12 samples.

Results

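Heat shock proteins and chaperones were described here through 9 genes: Hsph1, Hspa4, Hspa8, Hspa5, Dnaja1, Dnajb1, Hsp90aa1, Hspd1 and Hspe1. Every probe set of the Affymetrix array that was annotated to these genes alone was taken, which gave 26 of 45101 probe sets. The listed group had 10 genes, and the tenth, Hsp90ab1, was not analysed here. The study profiled total RNA from mouse otic vesicles, the epithelial sacs that form the inner ear, and from the otic cell line 2B1, to look for genes downstream of the homeobox factor Dlx5. There were 12 arrays in 6 groups of 2. The vesicle groups were labelled Dlx5-null at E10.5, wild type at E10.5, labelled Dlx5-null at E10 and wild type at E10, where E counts embryonic days. Each vesicle array held a pool of 4 to 8 vesicles, cleaned of mesenchyme in dispase at 1 mg/ml on ice. The 2B1 groups were cells transiently transfected with Dlx5 and GFP vectors and cells given the empty vector carrying GFP alone, as independent cultures. Both 2B1 groups had been grown at 32 °C with gamma-interferon and then kept for 4 days at 37 °C without it, so the warming and the transfection were common to both groups and their own effects were not analysed here. Values are log2 expression values, so that a difference of 1 is a doubling, and they describe RNA and not protein.

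Chaperones bind unfolded or newly made proteins and use ATP to help them fold, to hold them or to pass them on for degradation. HSP70 proteins work in a cycle in which J-domain proteins deliver the client and stimulate ATP hydrolysis, and nucleotide exchange factors such as the HSP110 proteins release it again. Some clients move on to HSP90, which matures kinases and steroid receptors, while the chaperonins enclose clients in a ring-shaped chamber. Most of these genes are expressed in all growing cells, and many respond to heat shock factor 1, which binds heat shock elements in their promoters.

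The heat shock element and the endoplasmic reticulum stress element, the usual control sites of these genes, were looked for in RefSeq promoter windows on the GRCm38.p6 build, running from 250 bases before to 50 after each gene's start. Of the listed genes, 7 had a window. Hspa8, Hsp90aa1 and Hsp90ab1 had none. A heat shock element of 3 units, searched on both strands as TTC, GAA and TTC with 2 bases of any kind between neighbouring units, occurred in the windows of Hsph1, Hspe1 and Hspd1, against 0.662% of the 27025 genes with a window. The endoplasmic reticulum stress element, searched on both strands as CCAAT and CCACG with 9 bases between them, occurred in the window of Hspa5, against 0.137% of genes. Stretches of Hsph1, Hspe1 and Hspa5 are printed with their matches in capitals. Hsph1 and Hspe1 were picked because they carried the stage difference described below, and Hspa5 because its probe sets disagreed. Dnaja1 was also called for stage but had a window without a heat shock match, and Hspd1 had a match but was not called. The Hsph1 stretch was chr5:149636286-149636315 on the minus strand, the first 30 bases after one of the gene's annotated starts, with its match at bases 16 to 28. The Hspe1 stretch was chr1:55088053-55088082 on the plus strand, with 2 overlapping matches from base -89 to base -72, and it also lay in the window of the neighbouring Hspd1, which is read from the opposite strand. The Hspa5 stretch was chr2:34771840-34772119 on the plus strand, from 250 bases before to 30 after the start, with its match from base -65 to base -47.
Hsph1: gtaaaatgctgcagaTTCTGGAAAGTTCtc
Hspe1: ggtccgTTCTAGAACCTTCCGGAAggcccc
Hspa5: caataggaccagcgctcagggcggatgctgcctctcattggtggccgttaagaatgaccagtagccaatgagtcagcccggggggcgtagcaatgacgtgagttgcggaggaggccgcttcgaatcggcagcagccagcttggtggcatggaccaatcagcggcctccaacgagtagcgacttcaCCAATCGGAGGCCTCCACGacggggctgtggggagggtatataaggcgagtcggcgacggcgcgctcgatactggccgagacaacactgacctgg
A match is a description of the letters and was not tested as a binding site.

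Some facts about the arrays touch all of the results below. Vesicle and 2B1 arrays differed in their overall distributions, with medians of 5.62 to 5.76 and 5.36 to 5.42, so levels were not compared between them. The Dlx5 probe set had higher values in vesicles labelled Dlx5-null, at 7.27 to 8.02, than in wild-type vesicles, at 6.11 to 6.30, so it did not check the label and the groups are named by their labels. In 2B1 cells it read 5.14 and 4.80 with Dlx5 vector, against 4.66 and 4.79 with empty vector. The replicate 1 arrays of both E10 groups stood apart. Their Xist values were 4.98 and 5.07, against 8.91 to 9.72 on the other 6 vesicle arrays, and the standard deviation of their values over all probe sets was 2.33 and 2.32, against 2.38 to 2.47. Stage differences of the 9 chaperone genes over both genotypes are therefore also given without these 2 arrays. For all other genes named below they are given with every vesicle array only, and were not checked in this way. The Y-linked gene Eif2s3y read 6.50 and 7.04 on them, against 6.17 and 3.96 on E10 null and E10 wild type replicate 2. On the E10.5 arrays it read 4.82 and 5.04 in null and 3.21 and 3.45 in wild-type vesicles. Xist and Eif2s3y vary with the sex of the pooled embryos, and the part of sex in the differences below was not tested. The otic markers Oc90 and Sox10 were at 10.75 or more and 11.13 or more in every vesicle group. In 2B1 cells Oc90 was at 5.67 to 6.17, Pax8 at 4.04 to 4.58 and Gbx2 at 2.81 to 3.13, on arrays whose median value was 5.36 to 5.42. Pax8 and Gbx2 thus lay below the array median in the line and Oc90 just above it, while the otic marker Fbxo2 was at 9.36 to 9.68. Of the 10 periotic mesenchyme markers, only Lum at 3.91 to 4.20 and Pou3f4 at 4.16 to 4.38 lay below the array median in the line. All the others lay above it, from Dcn at 5.87 to 7.48 up to Col1a1 at 13.35 to 13.92.

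The clearest pattern among the chaperones was a lower level at E10.5 than at E10. Hsph1, Hsp90aa1, Hspe1 and Dnaja1 fell, by 0.39 to 0.88 on the log2 scale over both genotypes, and the other 5 genes had differences below 0 that did not pass the test. The test was limma's moderated test with genotype as a covariate, Benjamini-Hochberg adjusted over all 13645 genes with a threshold of 0.05, on 4 arrays against 4. This comparison was added after the values had been seen. The 9 genes were also chosen with earlier results of these data known, so shares of them set beside shares of all genes are a description and not a test. The comparison called 4 of the 9 chaperone genes lower, while 6.54% of all genes were called lower and 9.28% higher. The median difference of the 9 genes was -0.39, against 0.05 over all genes. In 6 of the 9 every E10.5 array lay below every E10 array, which held for 9.97% of all genes. Fewer cells of a type and less RNA per cell cannot be told apart in such pools.

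**Figure D1:**
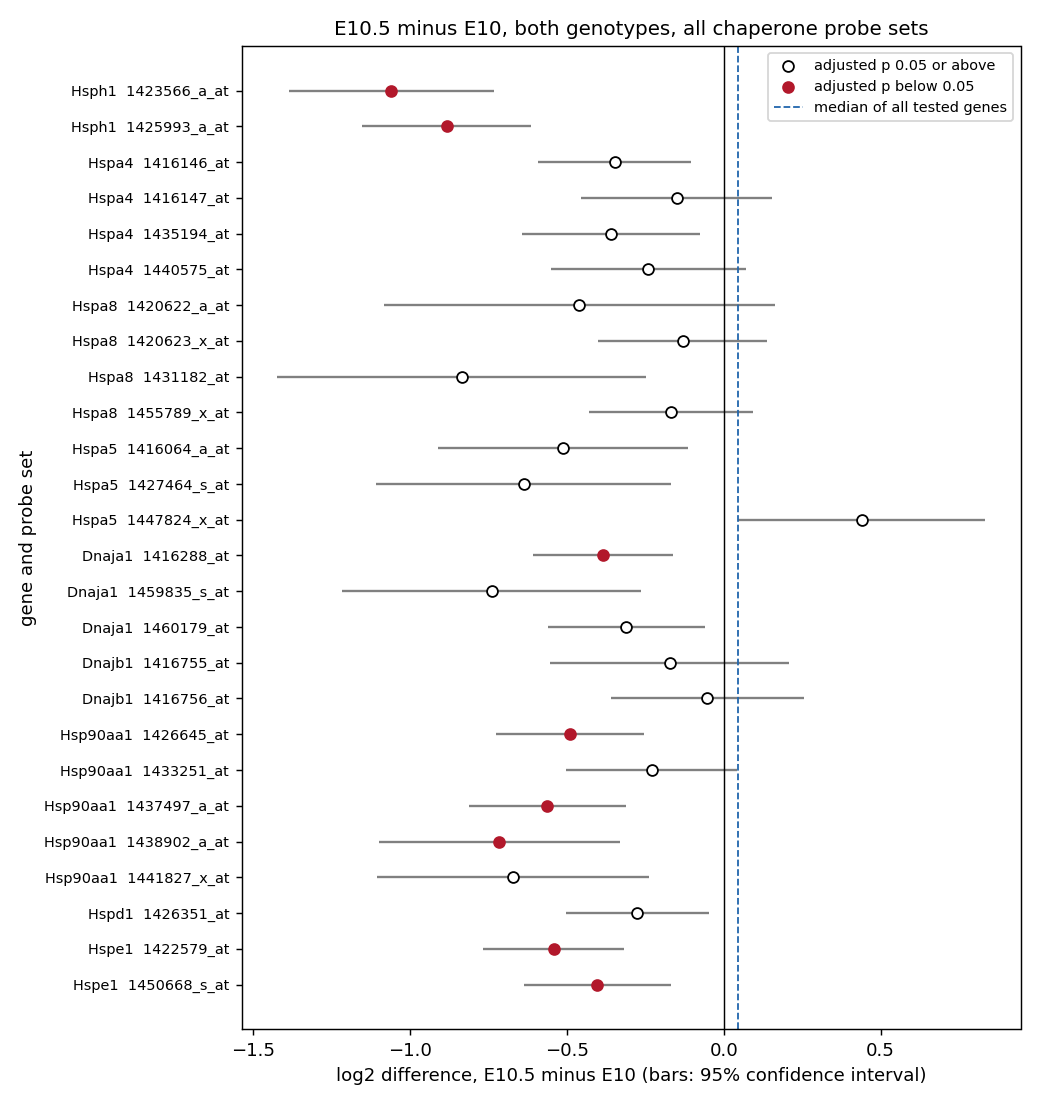
Each row is a probe set of a chaperone gene and shows its log2 difference, E10.5 minus E10, over both genotypes, with the 95% confidence interval of limma's fit of all probe sets. Filled points passed an adjusted p of 0.05, and 25 of the 26 points lie below 0, the exception being one Hspa5 probe set at 0.44.

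Hsph1, an HSP110 protein that acts as a nucleotide exchange factor of HSP70 and prevents aggregation, had the largest difference of the 9. Its brightest probe set, 1425993_a_at, read 10.75 and 10.77 in E10.5 null vesicles and 10.73 and 10.85 in E10.5 wild-type vesicles, against 11.73 and 11.42 in E10 null and 11.87 and 11.61 in E10 wild-type vesicles. The 4 arrays at E10.5 spanned 0.12, and the highest of them lay 0.57 below the lowest array at E10. The difference was -0.88 (SE 0.12, 95% confidence interval -1.15 to -0.61), a linear ratio of 0.542 (limma, adjusted p = 0.00487). The other Hsph1 probe set, 1423566_a_at, read 9.52, 9.46, 9.40 and 9.59 at E10.5, null before wild type, against 10.70, 10.18, 10.81 and 10.52 at E10. Both probe sets therefore separated the stages without overlap. Hsph1 passed the test in all 16 alternative settings, with adjusted p from 0.00132 to 0.0331, and without the 2 E10 replicate 1 arrays its difference was -0.74 (adjusted p = 0.00557).

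Hspa4, a second HSP110 protein, shared this direction with a smaller size. It read 13.59 and 13.56 in E10.5 null and 13.47 and 13.53 in E10.5 wild-type vesicles, against 14.01 and 13.75 in E10 null and 13.97 and 13.81 in E10 wild-type vesicles. The stages did not overlap, but the difference of -0.35 (SE 0.11) missed the threshold (limma, adjusted p = 0.0572). Its 3 other probe sets gave -0.15, -0.24 and -0.36, each with stages that overlapped or met.

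Probe sets of Hspa8, the constitutive cytosolic HSP70, varied in the size of the difference. Those of Hspa5, the HSP70 of the endoplasmic reticulum, varied in its sign. Hspa8 by its brightest set, 1455789_x_at, read 13.56 and 13.63 in E10.5 null and 13.58 and 13.56 in E10.5 wild-type vesicles, against 13.92 and 13.53 in E10 null and 13.82 and 13.73 in E10 wild-type vesicles, a difference of -0.17 (SE 0.11, limma, adjusted p = 0.334). The spread at E10 was set mainly by the null pair. Another Hspa8 set, 1431182_at, read 10.73 and 10.52 in E10.5 null and 10.71 and 10.78 in E10.5 wild-type vesicles, against 12.20 and 10.83 in E10 null and 11.77 and 11.28 in E10 wild-type vesicles. These stages did not overlap, yet the E10 null arrays alone spanned 1.37 and the difference of -0.84 was not called (limma over all probe sets, adjusted p = 0.0832). The remaining Hspa8 sets overlapped between stages. Their means at E10.5 and E10 were 11.205 and 11.665 for 1420622_a_at, and 13.24 and 13.37 for 1420623_x_at. Every Hspa8 set was thus lower on average at E10.5, and none was called. The suffix x marks sets with probes that can also match other transcripts, and Hspa8 has near-identical pseudogene copies, so its values are uncertain in this respect.

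Hspa5, known as BiP, read 11.85 and 11.79 in E10.5 null and 11.88 and 12.09 in E10.5 wild-type vesicles, against 12.61 and 11.96 in E10 null and 12.84 and 12.25 in E10 wild-type vesicles by 1416064_a_at. The stages overlapped, and the difference of -0.51 (SE 0.18) was not called (limma, adjusted p = 0.0853). It shrank to -0.20 without the E10 replicate 1 arrays, which were the higher member of each E10 pair. The set 1447824_x_at ran the other way, at 11.08, 11.58, 11.05 and 10.84 in E10.5 vesicles, null before wild type, against 10.44, 10.72, 10.72 and 10.91 in E10 vesicles. It was the one set of the 26 with a difference above 0, and averaging the 3 Hspa5 sets left -0.24. The remaining set, 1427464_s_at, had a mean of 10.56 at E10.5 against 11.20 at E10, with overlapping stages.

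Of the J-domain partners of HSP70, Dnaja1 fell and Dnajb1 did not pass the test. Dnaja1, which delivers clients to cytosolic HSP70, read 12.91 and 12.90 in E10.5 null and 12.87 and 12.79 in E10.5 wild-type vesicles, against 13.25 and 13.21 in E10 null and 13.33 and 13.22 in E10 wild-type vesicles. Every E10.5 array was lower, by -0.39 on average (SE 0.09, limma, adjusted p = 0.0309). Its 2 other sets were also lower without overlap but were not called. Null before wild type, 1459835_s_at read 9.61, 9.62, 9.37 and 9.49 at E10.5, against 10.57, 9.79, 10.72 and 9.97 at E10. In 1460179_at the lowest E10 array lay only 0.04 above the highest E10.5 array. Dnajb1, a stress-inducible J-domain protein, read 12.35 and 12.36 in E10.5 null and 12.36 and 12.41 in E10.5 wild-type vesicles, against 12.57 and 12.08 in E10 null and 12.67 and 12.37 in E10 wild-type vesicles. The E10.5 arrays lay inside the E10 range, with a difference of -0.05 (95% confidence interval -0.36 to 0.26, limma, adjusted p = 0.814). The other Dnajb1 set, 1416755_at, overlapped as well, at 11.89 to 12.05 at E10.5 against 11.72 to 12.61 at E10. The difference between Dnaja1 and Dnajb1 was not tested.

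Hsp90aa1, the stress-inducible cytosolic HSP90, read 13.29 and 13.31 in E10.5 null and 13.16 and 13.16 in E10.5 wild-type vesicles, against 13.70 and 13.66 in E10 null and 13.83 and 13.69 in E10 wild-type vesicles. The E10.5 arrays were lower throughout, by -0.49 (SE 0.10, a linear ratio of 0.712, limma, adjusted p = 0.0172). Of its 5 probe sets, 3 fell in the test of all probe sets, 1441827_x_at had -0.67 with an adjusted p of 0.0632, and 1433251_at, below the median of each vesicle array at 4.70 to 5.26, had -0.23 with overlapping stages.

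The mitochondrial chaperonin is made of Hspd1, the HSP60 barrel, and Hspe1, its HSP10 lid. Hspe1 read 11.49 and 11.53 in E10.5 null and 11.51 and 11.59 in E10.5 wild-type vesicles, against 11.83 and 11.85 in E10 null and 11.92 and 12.13 in E10 wild-type vesicles. All E10.5 arrays were lower, by -0.40 (SE 0.10, limma, adjusted p = 0.0324), and its other set, 1422579_at, fell by 0.54. Hspd1 read 13.95 and 13.97 in E10.5 null and 13.95 and 14.00 in E10.5 wild-type vesicles, against 14.31 and 14.14 in E10 null and 14.32 and 14.20 in E10 wild-type vesicles. The stages did not overlap, but the difference of -0.28 (SE 0.10) was not called (adjusted p = 0.0859).

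**Figure D2:**
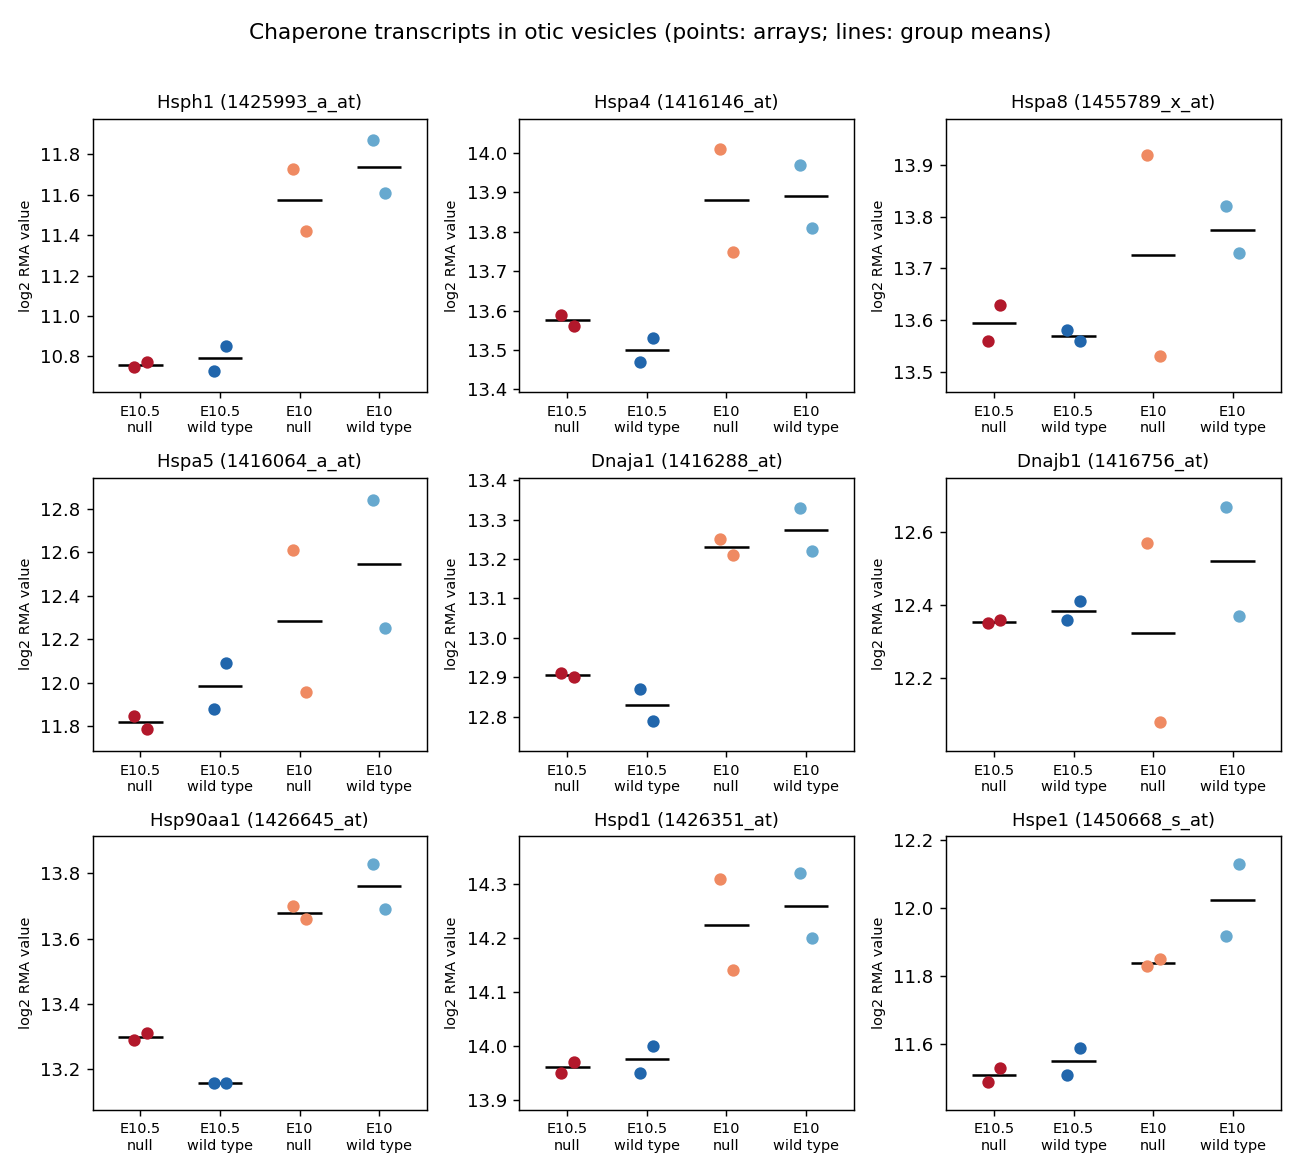
Log2 values of the 9 chaperone genes on the 8 vesicle arrays, each by its brightest probe set, with 2 arrays a group as points and the group mean as a line; each panel has its own axis, which does not start at 0. The E10.5 pairs lie close together and below the E10 pairs in 6 panels, while Hspa8, Hspa5 and Dnajb1 overlap between stages.

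Over all 26 probe sets, 8 were called lower at E10.5, against 4.07% of all probe sets, and none was called higher (limma, 4.44% of all probe sets). The difference lay below 0 in 25, against 53.8% of all probe sets, and in 14 the stages did not overlap, against 7.93%. The 8 were both sets of Hsph1, both of Hspe1, 3 of Hsp90aa1 and 1 of Dnaja1. Probe sets of one gene share its transcripts and are not independent, and the genes were chosen with earlier results of these data known.

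The 3 smaller calls rested on few arrays. Leaving out either E10.5 wild-type array, or E10.5 null replicate 1, ended the calls of Hsp90aa1, Hspe1 and Dnaja1, with adjusted p up to 0.0844, 0.131 and 0.125. Over all 8 arrays left out in turn, the 3 genes' differences lay between -0.52 and -0.35. Leaving out E10 null replicate 1 or E10.5 null replicate 2 ended those of Hspe1 and Dnaja1, and E10 wild type replicate 2 and replicate 1 ended those of Hspe1 and of Dnaja1. Without both E10 replicate 1 arrays the same 4 genes were called, with Hsp90aa1 at -0.45 (adjusted p = 0.0195), Hspe1 at -0.46 (adjusted p = 0.0224) and Dnaja1 at -0.35 (adjusted p = 0.0366). Of the genes not called, Dnajb1 turned to 0.14 without these 2 arrays, and Hspa8 was at -0.05, Hspa4 at -0.24 and Hspd1 at -0.20. With replicate number as a block, limma called Hsph1 alone (adjusted p = 0.0209), and the other 3 calls were lost, at adjusted p of 0.0564 for Hsp90aa1, 0.0815 for Hspe1 and 0.0857 for Dnaja1.

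Within a genotype the stages were compared with 2 arrays against 2. In wild-type vesicles Hsph1 alone fell, by 0.95 (SE 0.17, limma, adjusted p = 0.0491), so 1 of 9 chaperone genes was called where 2.17% of all genes were, and in 8 of 9 the groups did not overlap, against 21.6% of all genes. That call was lost when E10 wild type replicate 1, either E10.5 wild-type array or either E10.5 null array was left out. In null vesicles 0 of 9 were called by limma, against 0.022% of all genes, and 2 had an unadjusted p under 0.05, against 15.3%. There Hsph1 differed by -0.82 (SE 0.17, adjusted p = 0.115), and 7 of 9 genes were lower without overlap, against 19.3% of all genes. The interaction of stage and genotype gave 0 calls among the 9 and 0 among all genes (limma, 0%), with member differences, null minus wild type, of 0.02 to 0.22 and 0 of 9 at an unadjusted p under 0.05, against 1.97% of all genes. The 2 genotypes' stage differences were thus not shown to differ.

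Other RNA classes moved with the stages, where 6.54% of all genes were called lower and 9.28% higher. The 8 blood markers tested were all higher at E10.5 and 6 rose, and their mean log2 value was 10.25 and 10.16 in E10.5 null and 9.08 and 9.04 in E10.5 wild-type vesicles, against 7.47 and 8.19 in E10 null and 7.51 and 8.20 in E10 wild-type vesicles. Periotic mesenchyme markers rose in 5 of 10 cases, with means of 6.63 to 6.86 in E10.5 null and 6.97 to 7.11 in E10.5 wild-type vesicles, against 6.07 to 6.24 in E10 null and 6.16 to 6.64 in E10 wild-type vesicles. Endothelium markers rose in 3 of 6. Otic epithelium markers were called higher in 3 of 10 and lower in 3, among them Oc90, a secreted otoconial protein, at 1.59 (adjusted p = 0.0158), and the transcription factor Pax8 at -1.06 (adjusted p = 0.00681). The mean of the 9 chaperone genes was 12.61 to 12.66 on the 4 E10.5 arrays. At E10 it was 13.10 and 12.84 in null and 13.17 and 13.00 in wild-type vesicles, with replicate 1 the higher of each pair. The part of these other cells in the chaperone difference was not tested. The 3′ to 5′ difference of the Gapdh control probe sets, a sign of RNA length, was 1.03 to 1.06 on the E10.5 arrays, against 1.27 and 1.28 in E10 null and 1.13 and 1.02 in E10 wild-type vesicles, so the stages overlapped. The same difference of the Actb control sets was 0.16 to 0.22 on the E10.5 arrays, against 0.25 to 0.28 on the E10 arrays, without overlap. The part of these differences in the chaperone values was not tested either.

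Other chaperone classes had calls in both directions at E10.5, where 6.54% of all genes were called lower and 9.28% higher. Of 21 other HSP70, HSP110 and J-domain genes tested, 3 fell and 4 rose, with a median of -0.17. Dnajc21, a J-domain protein of ribosome assembly, fell by 0.62 (adjusted p = 0.0431), whereas Dnajb2, a J-domain protein rich in neurons, rose by 0.82 (adjusted p = 0.0414) and Hspa12b, a distant HSP70 relative of endothelial cells, by 0.72 (adjusted p = 0.0153). Among 14 subunits of the cytosolic chaperonin CCT/TRiC and of prefoldin, which hands actin and tubulin to it, 3 fell and 1 rose, with a median of -0.15. Cct8 fell by 0.47 and Tcp1 by 0.38, both subunits of the ring, and of the prefoldin subunits Vbp1 fell by 0.43 and Pfdn1 rose by 0.45.

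The counts for the other compartments stand beside the same shares of all genes, 6.54% lower and 9.28% higher. Mitochondrial chaperones and proteases had 2 of 14 genes called, and both fell. Hspa9, the mitochondrial HSP70, fell by 0.51 (adjusted p = 0.0172) and the inner membrane protease Yme1l1 by 0.65 (adjusted p = 0.0126), while the median of the list was 0.01. Of 25 endoplasmic reticulum chaperones and unfolded protein response genes, 3 fell and 2 rose, with a median of -0.01. Hsp90b1, the HSP90 of that compartment, fell by 0.57 (adjusted p = 0.0482), the lectin chaperone Canx by 0.52 (adjusted p = 0.0329) and Edem1, which marks misfolded glycoproteins for degradation, by 0.74 (adjusted p = 0.0135). Herpud1, a stress-induced factor of the same degradation route, rose by 0.60 (adjusted p = 0.0257).

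Genes that mark an acute stress response could be tested only in part. Of 18 listed heat shock factor and stress-induced genes, 11 were tested, the rest being too dim or without a probe set of their own. Of the 11, 1 fell and none rose, against 6.54% lower and 9.28% higher of all genes, with a median of 0.11. The one was Chordc1, an HSP90 partner that is itself heat-inducible, at -0.66 (SE 0.10, adjusted p = 0.00677), which also stood in the list of co-chaperones. In that list of 19 genes the other call was Hspbp1, an HSP70 nucleotide exchange factor, which rose by 0.76 (adjusted p = 0.0271), and the median was -0.04. The lowest value in the list of other HSP70 genes belonged to the strongly heat-inducible Hspa1b or Hspa1a on every array, at 2.74 to 3.17 in vesicles, on arrays whose lowest values were 2.04 to 2.08. Immediate early genes, which rise within minutes of handling or growth signals, were called higher in 4 of 12, with Jund at 1.62, Jun at 0.78, Egr1 at 0.75 and Ier5 at 0.53. Genes of any kind with a heat shock element of 3 units in their promoter window fell in 7 of 62 cases and rose in 7, with a median of 0.03, against 0.05 over all genes. The 62 include Hsph1, Hspe1 and Hspd1. Of the other 59, 5 fell, which is 8.47%, and 7 rose, which is 11.9%, against 6.54% lower and 9.28% higher of all genes.

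**Figure D3:**
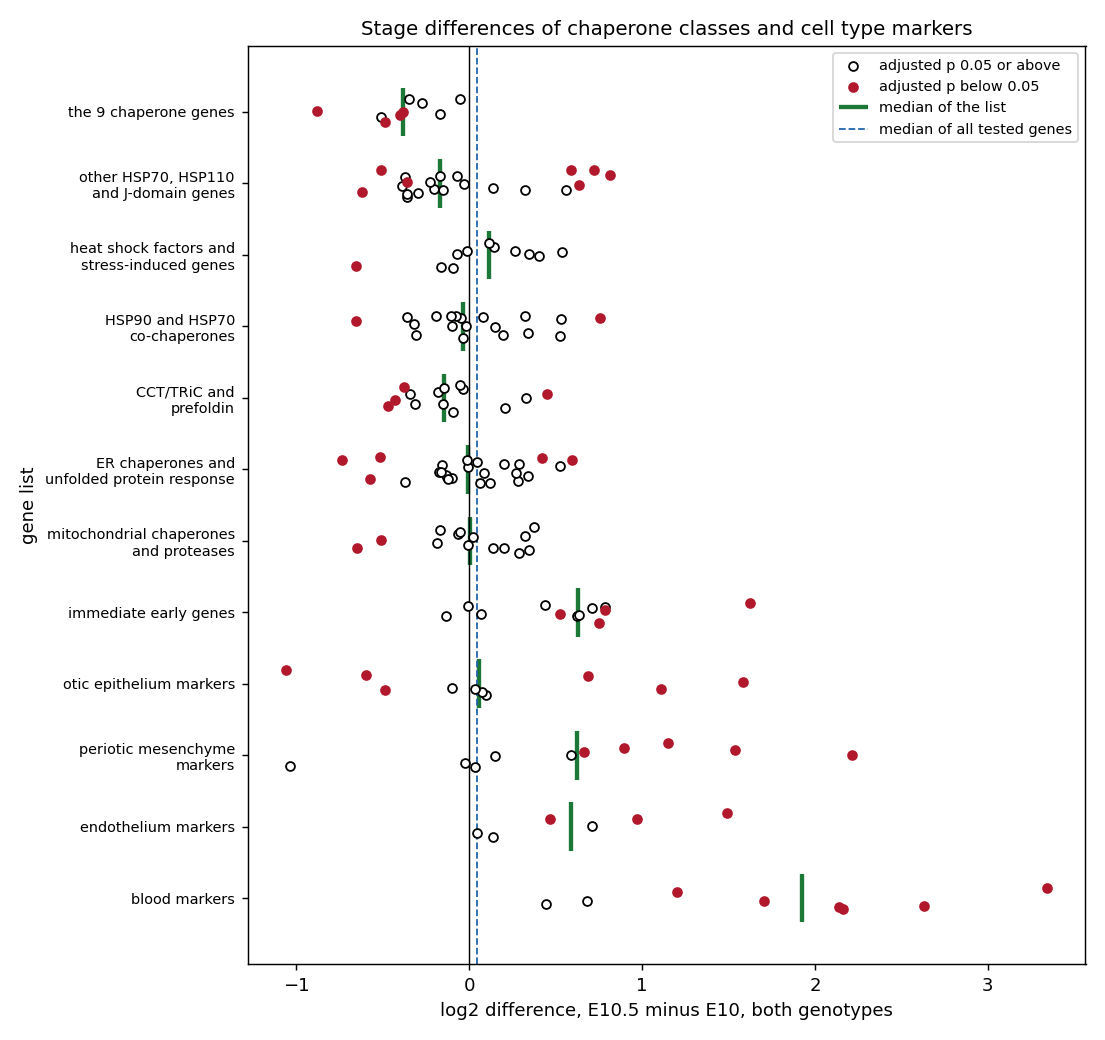
Each point is a tested gene and shows its log2 difference, E10.5 minus E10, over both genotypes; rows are gene lists, vertical bars their medians, and filled points passed an adjusted p of 0.05. The 9 chaperone genes all lie below 0 with all arrays in the fit, with a median of -0.39, though Dnajb1 is above 0 without the 2 E10 replicate 1 arrays; the other chaperone classes spread over both sides of 0, and blood markers lie highest with a median of 1.92.

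Among themselves the 9 genes followed each other over the 8 vesicle arrays to unequal degrees. The correlation of each gene with the mean of the other 8, a description over arrays that share their stage and array differences, was 0.986 for Hspd1, 0.969 for Hspa4 and 0.969 for Hsph1. It was 0.774 for Hspe1 and 0.495 for Dnajb1. Outside the 9, the genes whose profile over the 8 arrays was most like their mean were Tmpo at r = 0.995, Hnrnpa1 at 0.994, Eif5 at 0.991, Baz1a at 0.989 and Psmd6 at 0.989. They were chosen on the same arrays for likeness to a mean that is itself lower at E10.5, so their stage differences follow from the choice and are given as a description. These were -0.63 for Hnrnpa1, an RNA-binding splicing factor, -0.72 for Eif5, a translation initiation factor, -1.14 for Baz1a, a chromatin remodelling subunit, -0.27 for Tmpo and -0.25 for Psmd6.

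No chaperone gene was found to differ between vesicles labelled Dlx5-null and wild-type vesicles, the comparison the study was built on. Over both stages, limma called 0 of the 9 genes, against 0.022% of all genes, and 0 had an unadjusted p under 0.05, against 4.1% of all genes. The differences ran from -0.21 for Hspa5 to 0.03 for Hspa4, and the widest 95% confidence bounds were -0.62 and 0.27. A fall or rise of a whole log2 unit lay outside the interval of each gene, and changes up to these bounds lay within one.

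At E10.5 limma called 0 of 9, against 0.00733% of all genes, with differences of -0.17 to 0.14, and 0 of 9 had an unadjusted p under 0.05, against 2.95% of all genes. Hsp90aa1 had the highest, at 13.29 and 13.31 in null vesicles, against 13.16 and 13.16 in wild-type vesicles (difference 0.14, SE 0.14). In 3 genes the null arrays lay above the wild-type arrays, against 16.9% of all genes, and in 1, Hspa5, below, against 28.2%. At E10 limma called 0 of 9 and 0 of all genes, and 0 of 9 had an unadjusted p under 0.05, against 3.31% of all genes. All 9 differences were at or below -0.01, down to -0.26 for Hspa5, and only Hspe1, at 11.83 and 11.85 in null vesicles, against 11.92 and 12.13 in wild-type vesicles, had groups that did not overlap, against 8.93% of all genes. Leaving out the 2 E10 replicate 1 arrays would set 1 array against 1, so no such value is given here. The 8 blood markers tested were all higher in null than in wild-type vesicles at E10.5, by a median of 1.01. At E10, 5 of them were higher and 3 lower, with a median of 0.07. Periotic mesenchyme markers were lower in nulls in 8 of 10 cases at each stage, with medians of -0.27 at E10.5 and -0.32 at E10, and endothelium markers in 6 of 6 at E10.5 and 4 of 6 at E10. None of these markers was called by limma between genotypes, and their part in the chaperone values was not tested. The comparisons share arrays with those between stages, so their values are not independent of them.

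**Figure D4:**
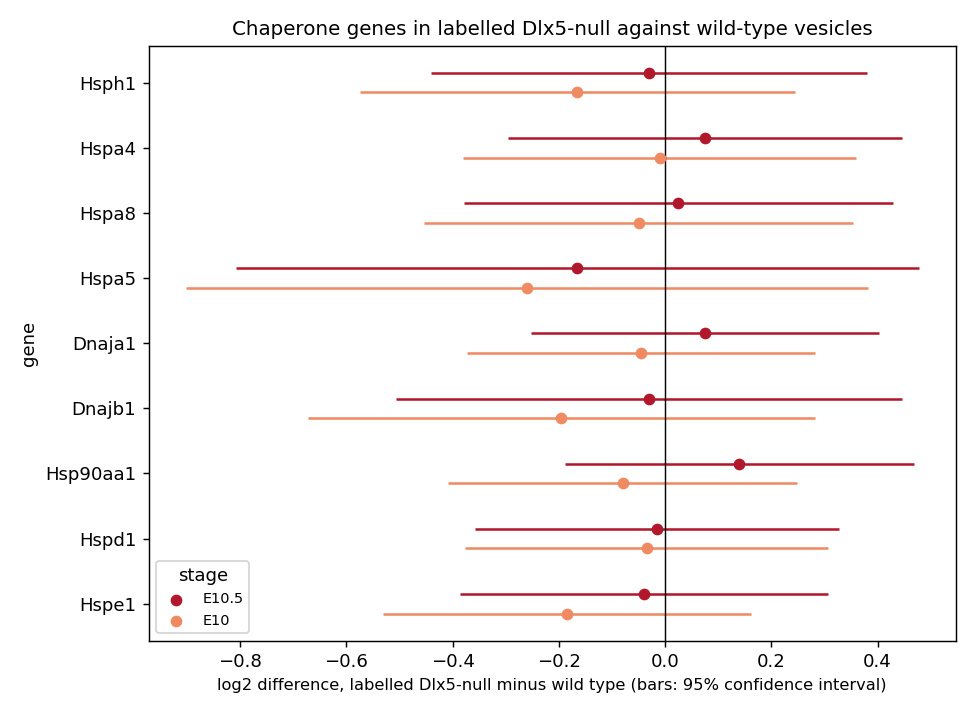
Log2 difference, labelled Dlx5-null minus wild type, of the 9 chaperone genes at E10.5 and at E10, with the 95% confidence interval of limma's fit of the 4 vesicle groups. Every interval includes 0, and the points lie between -0.26 and 0.14.

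In 2B1 cells limma likewise called 0 of the 9 chaperone genes between Dlx5-transfected and empty vector cultures, and 0 of all 13647 genes. At an unadjusted p under 0.05 there was 1 of 9, against 12.9% of all genes. In 3 genes both Dlx5 cultures lay above both vector cultures, against 29.6% of all genes, and in 2 they lay below, against 19.1%. The median difference of the 9 was 0.08, against 0.05 over all genes.

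Hspa5 was the gene with the unadjusted p under 0.05, and its probe sets contradicted each other. The set brightest in this line, 1447824_x_at, read 10.63 and 10.69 in Dlx5 cells, against 11.29 and 11.02 in vector cells, a difference of -0.50 (SE 0.17, limma, adjusted p = 0.377). The set 1416064_a_at read 11.15 and 11.11 in Dlx5 cells, against 10.49 and 10.86 in vector cells, and 1427464_s_at read 7.98 and 7.93 in Dlx5 cells, against 7.28 and 7.58 in vector cells. These gave 0.46 and 0.53, also without overlap and also not called, with an adjusted p of 0.502 for each over all probe sets. A direction for Hspa5 in this line could not be given.

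Hspe1 had the same sign in both of its sets. It read 10.63 and 10.52 in Dlx5 cells, against 10.21 and 10.34 in vector cells, by its brightest set, and 7.86 and 8.02, against 7.33 and 7.80, by the other. The groups did not overlap in either, and the differences of 0.30 (SE 0.16, adjusted p = 0.435) and 0.38 were not called. Its partner Hspd1 read 13.89 and 13.86 in Dlx5 cells, against 13.98 and 14.00 in vector cells, a difference of -0.12 (adjusted p = 0.757).

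By their brightest sets the cytosolic genes lay close together in the line. Hsph1 read 9.26 and 9.22 in Dlx5 cells, against 9.04 and 9.23 in vector cells, and Hsp90aa1 read 14.15 and 14.12, against 14.04 and 14.08. Dnajb1 read 12.61 and 12.60 in Dlx5 cells, against 12.27 and 12.56 in vector cells, and Dnaja1 read 12.41 and 12.37, against 12.23 and 12.40. Hspa8 read 14.11 and 14.20 in Dlx5 cells, against 14.35 and 14.13 in vector cells, and Hspa4 read 14.09 and 14.05, against 14.14 and 14.09. Some dimmer sets lay further apart. Hsp90aa1 by 1437497_a_at read 12.79 and 12.82 in Dlx5 cells, against 12.26 and 12.61 in vector cells. Hspa4 by 1435194_at read 9.68 and 9.47, against 9.23 and 9.35. Neither was called, and of all 26 chaperone probe sets 17 had differences above 0 and 9 below. For Hsph1, Dnaja1 and Dnajb1 vector replicate 1 was the lowest of the 4 arrays. That array also had the narrowest spread over all probe sets, 2.19 against 2.29 to 2.31, and the highest Gapdh 3′ to 5′ difference, 1.82, against 1.34 and 1.36 in Dlx5 cells and 1.62 in the other vector culture. Without this array, which leaves 1 vector culture, the differences were 0.05 in place of 0.19 for Dnajb1, 0.01 in place of 0.11 for Hsph1, -0.01 in place of 0.08 for Dnaja1, 0.24 in place of 0.30 for Hspe1 and -0.36 in place of -0.50 for Hspa5, and none was called. The part of this array in the differences was not tested. Of the 8 periotic mesenchyme markers tested, 6 were higher and 2 lower in Dlx5 cells, and none was called. Their means were 8.68 and 8.62 in Dlx5 cells, against 8.19 and 8.49 in vector cells, with vector replicate 1 the lowest. Col1a1, the highest of them, was lower in Dlx5 cells, at 13.35 to 13.45 against 13.91 to 13.92 in vector cells. The part of these markers was not tested.

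The wider chaperone lists gave 0 calls in 2B1 cells in limma's test as well. Their median differences were 0.30 for CCT/TRiC and prefoldin, 0.26 for the other HSP70, HSP110 and J-domain genes, 0.24 for stress-induced genes, 0.23 for mitochondrial chaperones, 0.18 for endoplasmic reticulum genes and 0.04 for co-chaperones, against 0.05 over all genes. The means of the CCT/TRiC and prefoldin list were 10.35 and 10.32 in Dlx5 cells, against 9.85 and 10.20 in vector cells, so vector replicate 1 was again the lowest.

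**Figure D5:**
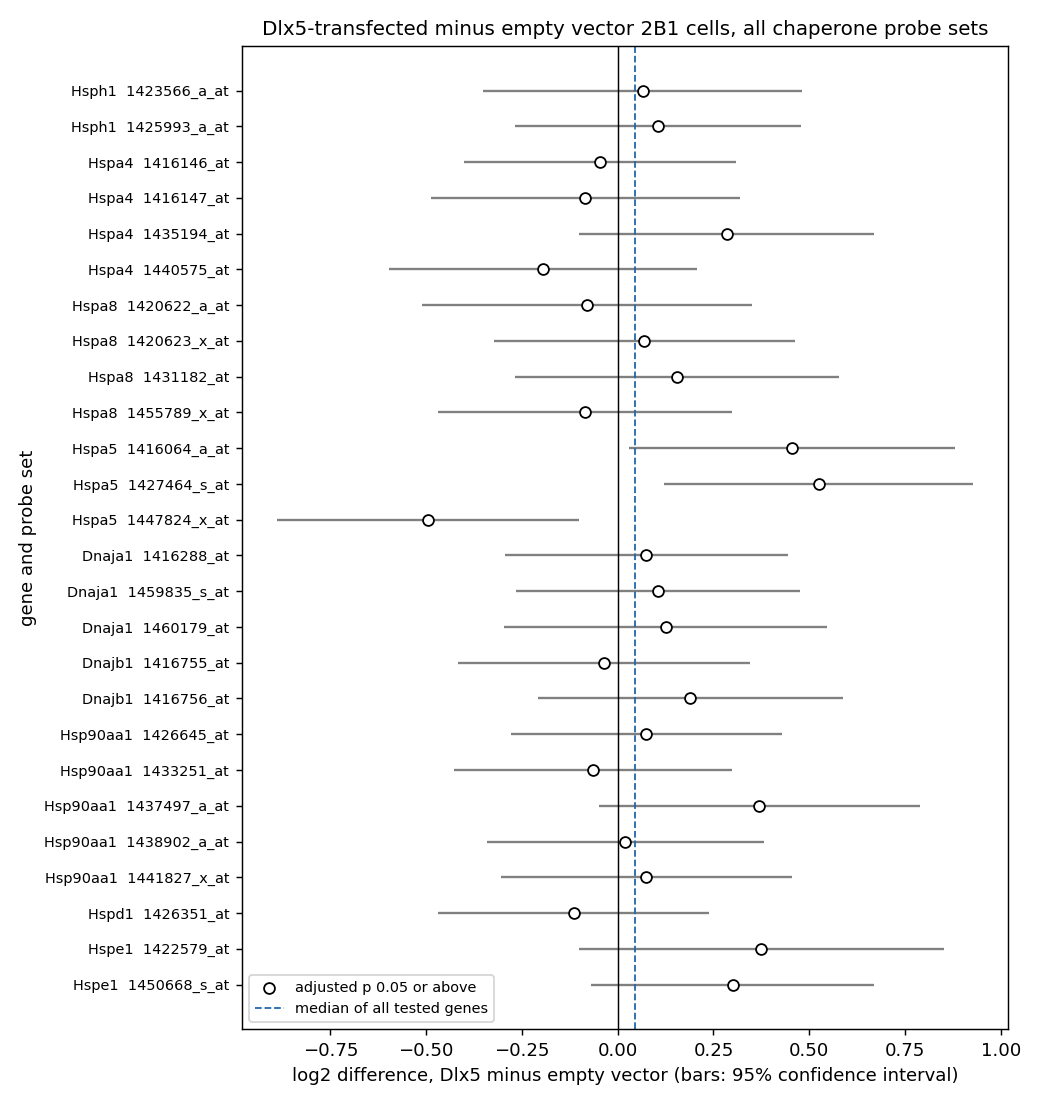
Each row is a probe set of a chaperone gene and shows its log2 difference, Dlx5-transfected minus empty vector 2B1 cells, with the 95% confidence interval of limma's fit of all probe sets. No set passed an adjusted p of 0.05, and the 3 Hspa5 sets lie furthest from 0, 2 of them above and 1 below.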

How the data were processed

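The deposited values were log2 expression values per probe set, made with RMA in Affymetrix Expression Console, per the submitters' processing notes; the tools' versions were not stated there. The number of arrays limits the precision. Of 45101 probe sets, 34958 had 1 gene in the platform annotation, 932 several and 9211 none, and symbols were updated through RefSeq gene IDs. The pairs of arrays shared at most 2.78% equal values, so none was a copy. Each gene was tested by its brightest probe set after the dimmest 25% of genes were left out, with limma 3.58.1 in R 4.3.3 (lmFit, eBayes, Benjamini-Hochberg, threshold 0.05), which was tested on simulated data. The 8 vesicle arrays and the 4 arrays of 2B1 cells were fitted apart. All probe sets were also fitted singly. All members are named, and of every other list the genes past the threshold, at most 4 a list and comparison. The 5 genes most like the members were chosen by Pearson correlation over the 8 vesicle arrays. Members and lists were chosen with earlier results of these data known. Alternatives were other probe set rules and filters, renewed quantile normalization, eBayes with a trend, replicate blocks, each array left out and only the arrays of the groups compared. Replicate numbers come from the titles; the description fields of the E10.5 replicate 2 arrays give replicate 1, so which E10.5 array bears which number is uncertain. Labels do not say that replicate numbers mark shared litters or days, so no block entered the fit.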

Additional observations from a re-analysis of the deposited data

How the results depend on the processing

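Of 1143 member differences recomputed under alternatives, 48 changed sign, and in 0 of these did either value pass the threshold. Over both genotypes, the 4 chaperone genes called lower at E10.5 became 7 with an eBayes trend, 1 with the replicate block and 1 to 6 with an array left out. In wild type, the 1 called became 0 with every probe set tested singly, without a filter, with the replicate block and with the 4 arrays of the groups compared, 3 with quantile normalization again, 6 with a trend, 3 without both E10 replicate 1 arrays and 0 to 1 with an array left out. In labelled nulls the 0 became 1 with a trend, and in 2B1 cells the 0 became 0 to 1 with an array left out, where Hspa5 by 1447824_x_at passed without vector replicate 2 (-0.63, adjusted p = 0.0497); the mean of its 3 sets was 0.16.

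The counts over all genes moved more. For null against wild type over both stages, 3 became 0 with the lowest-valued 50% of genes left out, 6 with quantile normalization, 9 with a trend, 18 with the replicate block, 0 to 10 with an array left out and 19 without both E10 replicate 1 arrays. At E10, 0 became 2 with quantile normalization and 19 without those arrays, which sets 1 array against 1 with the spread assumed to be that of the other groups. At E10.5, 1 became 0 with the mean of probe sets, 0 with the lowest-valued 50% of genes left out, 2 with a trend, 11 with the replicate block, 0 to 4 with an array left out and 37 with only its own 4 arrays. For stage over both genotypes, 2158 became 3364 with quantile normalization, 1230 with the replicate block and 463 to 3806 with an array left out. In wild type, 296 became 1006 with quantile normalization, 653 with a trend, 0 with the replicate block, 0 to 871 with an array left out, 1672 without both E10 replicate 1 arrays and 0 with its own 4 arrays. In labelled nulls, 3 became 25 with probe sets singly, 0 with their mean, 1 with the lowest-valued 50% of genes left out, 97 with quantile normalization, 109 with a trend, 0 with the replicate block, 8 with crossed numbers, 0 to 28 with an array left out, 311 without both E10 replicate 1 arrays and 5 with its own 4 arrays. In 2B1 cells, 0 became 25 with a trend, 258 with the replicate block, 20 with crossed numbers and 0 to 1742 with an array left out, the highest without vector replicate 2. The cause was not tested.

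Replicate numbers deviated together in the E10 pair (r = 0.707), but by 0.0673 in the E10.5 pair, -0.0959 and -0.374 between stages in wild type and labelled nulls, and -0.128 in 2B1 cells, so the numbers were not taken as pairs. With 2 arrays a group, the spread rests on few degrees of freedom. The stage comparison over both genotypes, the counts of chaperone genes called, the crossed numbers and the removal of both E10 replicate 1 arrays from that comparison were chosen after seeing the data.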
